A study of Homo sapiens with 3 samples.

Results

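The 44 genes described here act in the repair of damaged DNA. They were taken from a list of Fanconi, homologous recombination, end-joining, mismatch repair and checkpoint genes, out of 20033 protein-coding genes that was put together by their known role, with earlier results of these data in view. The occupancy of their promoters by CHD8, an ATP-dependent chromatin remodeler, and by TRRAP, a scaffold subunit of histone acetyltransferase complexes, was measured by chromatin immunoprecipitation and sequencing (ChIP-seq). The cells were wild-type neural stem cells of human origin, made from the established embryonic stem cell line H9, and were grown with EGF and FGF. All libraries came from chromatin crosslinked with disuccinimidyl glutarate and formaldehyde, and there was 1 library for each of the antibodies against CHD8 and TRRAP, with no replicate. A library made with control IgG was not analysed here.

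The CHD8 list held 23393 peaks and the TRRAP list 14735. A gene was counted as occupied if a peak overlapped a window that reaches 1 kb upstream and downstream from where its canonical transcript starts. Values of a peak are the authors' own: the fold (signal at the summit over the caller's background, on a linear scale) and the −log10 q. Folds rank peaks within a list and were not compared between lists. Because each antibody had 1 library, no p-value is given, and the intervals are Wilson 95% intervals that cover counting error only. The peaks are an average over all cells, so occupancy in more cells and stronger occupancy in each cell cannot be told apart. Of 9 neural stem cell marker genes, 9 had a CHD8 and 7 a TRRAP promoter peak. Of 4 glial markers, 0 had either (upper limit 49.0% of such genes), and of 5 pluripotency markers 2 had both. Of 5 neuronal markers, 3 had both peaks (TUBB3, SYT1 and SNAP25), and SNAP25 had a CHD8 fold of 38.0, above that of each neural stem cell marker. The markers thus do not set the cell type apart. A promoter peak does not measure transcription.

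DNA repair divides into routes that handle different lesions. The Fanconi pathway unhooks crosslinks between the strands, homologous recombination copies an intact sister chromatid to mend a broken one, and end joining ligates broken ends without a template. Mismatch repair removes replication errors, and checkpoint proteins signal damage and halt the cell cycle. Neural stem cells divide often, and many repair genes are transcribed most strongly around DNA replication, when E2F factors are active.

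A few of the sequences under these peaks show what the promoters look like. They are reference sequence of GRCh38, read 5′ to 3′ on the strand of the gene. The first set covers the CHD8 summit, with up to 50 bases on each side, for the member with the most significant CHD8 peak in a route among those whose CHD8 and TRRAP peaks overlap and whose summit lies upstream of the gene and outside untranslated exons. The stretches are chr12:949746-949846 (RAD52, minus strand), chr9:35080020-35080120 (FANCG, minus strand), chr22:28742469-28742569 (CHEK2, minus strand) and chr7:6009509-6009609 (PMS2, minus strand). No end-joining member met these conditions. None of the 9 consensus words searched for (their letters are given with the word counts) occurred in these 4 stretches.
RAD52: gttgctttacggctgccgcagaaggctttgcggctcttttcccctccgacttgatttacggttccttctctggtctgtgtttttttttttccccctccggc
FANCG: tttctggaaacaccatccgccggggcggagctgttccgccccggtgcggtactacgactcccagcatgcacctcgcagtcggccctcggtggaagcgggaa
CHEK2: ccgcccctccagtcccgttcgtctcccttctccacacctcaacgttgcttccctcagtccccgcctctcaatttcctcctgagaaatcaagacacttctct
PMS2: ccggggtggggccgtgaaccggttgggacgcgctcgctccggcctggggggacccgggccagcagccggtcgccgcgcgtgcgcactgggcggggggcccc

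BRCA2 is shown because its CHD8 summit, at chr13:32315408-32315504 on the plus strand, lies between an ETS word and an E-box, the sequence that MYC and related factors bind. Capitals mark the ETS word, which reads from the other strand here, and the E-box.
BRCA2: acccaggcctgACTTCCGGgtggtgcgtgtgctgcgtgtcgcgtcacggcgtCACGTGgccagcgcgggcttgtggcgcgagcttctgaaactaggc

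The last set shows E2F words, in capitals with up to 10 bases on each side, and was chosen after the word counts were seen. The words lie at chr16:89816812-89816819 (FANCA, gene on the minus strand), chr3:10026435-10026442 (FANCD2, plus), chr1:241848208-241848215 (EXO1, plus), chr2:47783148-47783155 (MSH6, plus) and chr3:133661941-133661948 (TOPBP1, minus). Each of the 5 lies inside the CHD8 peak of its gene, and all but that of FANCD2 lie inside a TRRAP peak.
FANCA: ctacaccgcgGCGGCAAAgccaaacgca
FANCD2: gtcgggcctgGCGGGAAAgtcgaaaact
EXO1: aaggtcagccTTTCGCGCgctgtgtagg
MSH6: tccccccagaTTTCCCGCcagcaggagc
TOPBP1: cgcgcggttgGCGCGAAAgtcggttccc

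CHD8 was present at the promoters of 43 of the 44 repair genes (97.7%, interval 88.2 to 99.6%), against 55.9% of all protein-coding genes. TRRAP was present at 30 (68.2%, interval 53.4 to 80.0%), against 34.9% of all genes. Each TRRAP-occupied repair promoter also had CHD8, so 30 carried both, against 34.0% of all genes. There were 13 with CHD8 alone, 0 with TRRAP alone, and 1, RAD51C, with neither. Among the 43 with CHD8, 69.8% had TRRAP (interval 54.9 to 81.4%), and the share among all CHD8-occupied genes, 60.7%, lies inside that interval.

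Promoters of repair genes are rich in CpG, and this moves with occupancy. Their median observed-over-expected CpG ratio within 500 bp of the start was 0.792 (range 0.590 to 0.997), against 0.725 over all genes. Among the 10520 genes between the 10th and the 90th percentile of the members' ratio, 78.6% had CHD8 and 50.5% had TRRAP. Both shares are closer to those of the repair genes than the shares over all genes are, and both lie below the intervals of the repair genes. The part of CpG content in the result was not tested further.

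The peaks of repair genes had about the strength usual for an occupied promoter. Their median CHD8 fold was 11.5 (25th to 75th percentile 9.75 to 15.3), against 12.0 (9.31 to 16.4) over all 11208 CHD8-occupied genes. For TRRAP it was 7.69 (6.73 to 11.5), against 8.65 (7.21 to 11.5) over 7000 genes. Counting only peaks in the upper 50% of their list by significance, 33 repair genes had CHD8, against 42.5% of all genes, and 13 had TRRAP, against 19.5%. By that count TRRAP was at 29.5% of the repair genes. No interval was made for this share, so a difference from 19.5% is not established. Of the 30 TRRAP-occupied genes, 17 had a peak from the weaker part of the list alone.

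**Figure D1:**
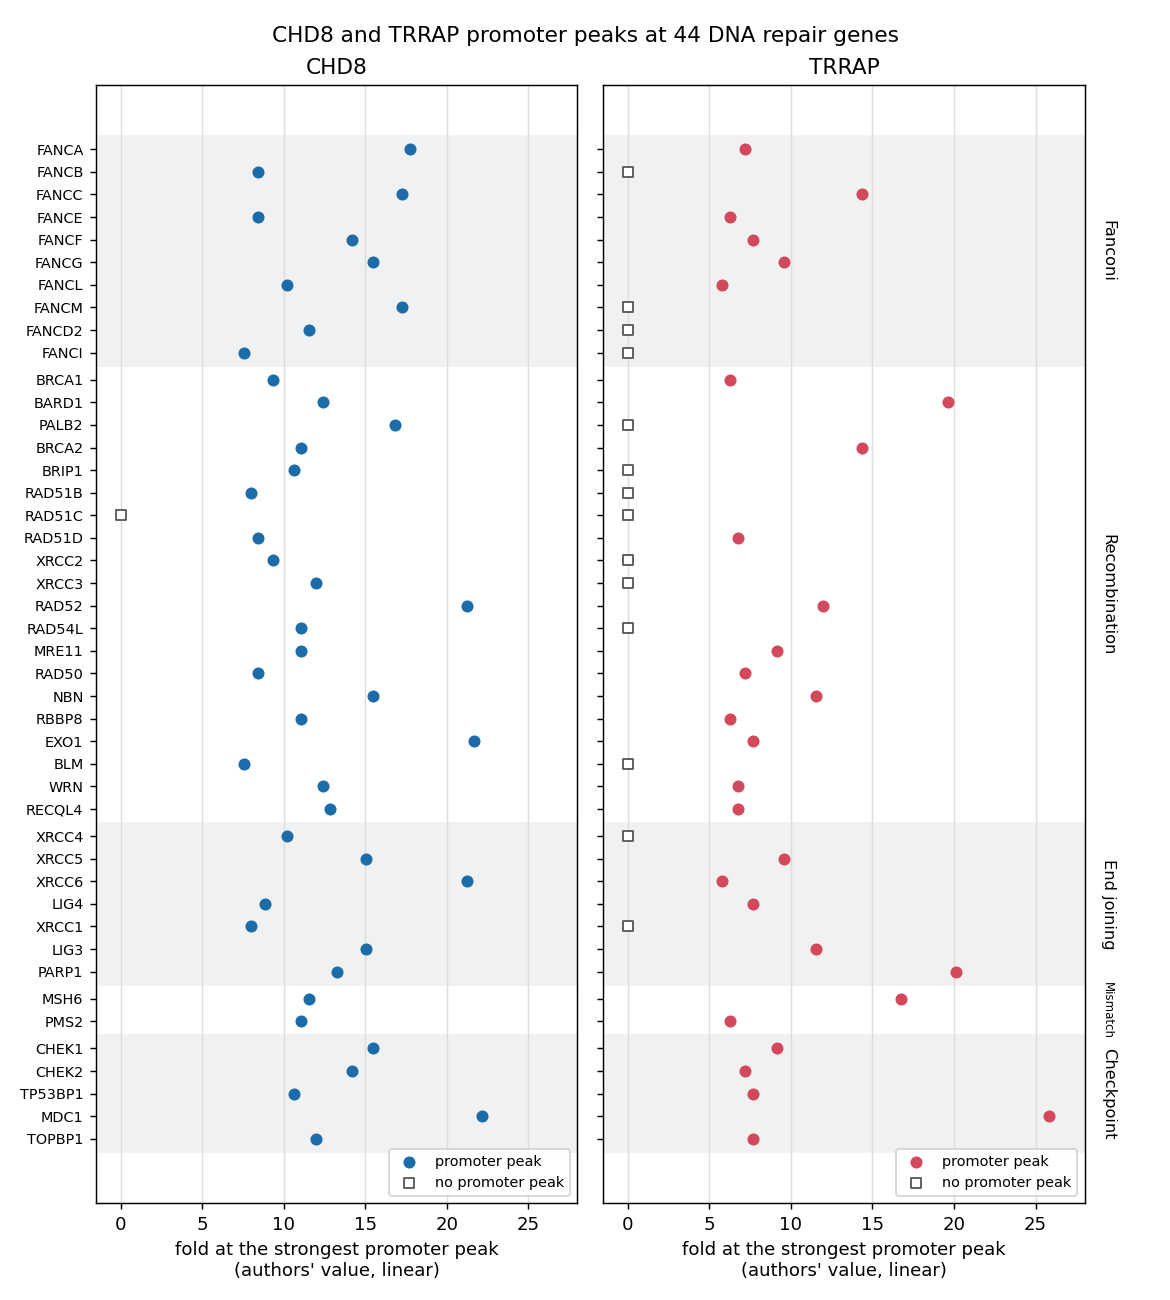
Authors' fold (linear) at the most significant CHD8 peak (left) and TRRAP peak (right) in each repair gene's promoter window, by route, from 1 library per antibody. Filled circles are peaks, and open squares, drawn at 0 by convention, mark genes with no peak in the window: 1 for CHD8 and 14 for TRRAP.

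All 10 Fanconi genes had CHD8 and 6 had TRRAP (60%, interval 31.3 to 83.2%). The TRRAP peaks were at subunits of the core complex, the ubiquitin ligase that is recruited to a crosslink. CHD8 was strongest at FANCA, a core subunit, with a fold of 17.7 and a −log10 q of 38.2 (chr16:89816338-89817141). FANCA also had a TRRAP peak of fold 7.21, whose summit lay 13 bp from that of CHD8.

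FANCC, a core subunit that pairs with FANCE, had a CHD8 fold of 17.3 and the strongest TRRAP peak of the Fanconi genes, with a fold of 14.4 and a −log10 q of 25.8 (chr9:95316890-95317845). FANCE itself had a CHD8 peak stronger than 40.3% of its list and a TRRAP peak stronger than 11.9%, at a CHD8 fold of 8.43 beside a TRRAP fold of 6.26 (−log10 q 5.33). FANCF, an adaptor within the complex, had a CHD8 fold of 14.2 beside a TRRAP fold of 7.69. Its peaks were the only pair among the 30 that did not overlap. The CHD8 summit lay 149 bp inside the gene and 32 bp from a start of its neighbour GAS2. The TRRAP summit lay 650 bp inside the gene and 336 bp from a GAS2 start.

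FANCG, a scaffold of the core complex, had a CHD8 fold of 15.5 beside a TRRAP fold of 9.60. FANCL, the catalytic ligase subunit, had a CHD8 fold of 10.2 beside a TRRAP fold of 5.78, the lowest TRRAP fold among the repair genes, shared with XRCC6. The remaining 2 core genes had no TRRAP peak. FANCB, on chromosome X, had the least significant CHD8 peak of the core (fold 8.43, −log10 q 11.3, chrX:14872962-14873337), tied with FANCE.

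FANCM, the translocase that anchors the core complex on DNA, differed from FANCB in strength. Its CHD8 peak had a fold of 17.3 (−log10 q 36.7, chr14:45135631-45136214), as strong as that of FANCC. A TRRAP peak of fold 6.73 lay outside its window, its summit 1676 bp further upstream than the start site, within a second CHD8 peak of fold 14.6. FANCM therefore counted as TRRAP-occupied in a window of 2500 bp.

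FANCD2 and FANCI form the clamp that the core complex ubiquitinates. Both had CHD8 and 0 of the 2 had TRRAP (upper limit 65.8%). The CHD8 fold was 11.5 at FANCD2 (−log10 q 19.9, chr3:10026182-10026627) and 7.54 at FANCI (−log10 q 9.04, chr15:89243794-89244425), the lowest fold of all repair genes together with BLM. The nearest TRRAP peaks lay 89085 bp downstream of the FANCD2 start and 46150 bp upstream of the FANCI start.

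Of the 20 homologous recombination genes, 19 had CHD8 (95%) and 12 had TRRAP (60%, interval 38.7 to 78.1%). Among 12 mediators, which load and remodel the recombinase filament, 5 had TRRAP (41.7%, interval 19.3 to 68.0%). All 5 genes of end resection, which trims the broken ends first, had it (interval 56.6 to 100%). The intervals overlap in part, and whether the steps differ was not tested.

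BRCA1 and BARD1 encode partners in a ubiquitin ligase that starts recombination, and they differed in their peaks. BRCA1 had a CHD8 fold of 9.31 beside a TRRAP fold of 6.26, with a −log10 q of 5.33, the lowest of the mediators (chr17:43125273-43125397). BARD1 had a CHD8 fold of 12.4 beside a TRRAP fold of 19.6 (−log10 q 41.1, chr2:214809662-214810209), the highest TRRAP fold of the recombination genes. Its CHD8 summit lay 436 bp upstream, 62 bp from the start of the divergent noncoding gene SNHG31.

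PALB2 bridges BRCA1 and BRCA2, and BRCA2 delivers the recombinase to resected DNA. PALB2 had a strong CHD8 peak (fold 16.8, −log10 q 35.2, chr16:23640972-23641859), and its nearest TRRAP summit lay 37392 bp from the start. The CHD8 summit lay 19 bp from a start of its divergent neighbour DCTN5. BRCA2 showed the reverse order within the lists: a CHD8 fold of 11.1, near the median, and a TRRAP fold of 14.4 (rank 1852 of 14735). That TRRAP summit lay 40 bp from a start of ZAR1L, the divergent neighbour of BRCA2, and was nearer to it than to any BRCA2 start. A further TRRAP peak of BRCA2, of fold 10.6, had its summit 250 bp downstream of the start. BRIP1, the helicase partner of BRCA1, had a CHD8 fold of 10.6 (−log10 q 17.3, chr17:61863276-61863737), and its nearest TRRAP summit lay 202524 bp away.

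Of the 5 paralogs of the recombinase in the list, which stabilise its filament, 4 had CHD8 and 1 had TRRAP. The TRRAP peak was at RAD51D, at a fold of 6.73 beside a CHD8 fold of 8.43. RAD51B (CHD8 fold 7.98, −log10 q 10.1, the lowest of the mediators, chr14:67819783-67820169), XRCC2 (fold 9.31, −log10 q 13.6, chr7:152675817-152676177) and XRCC3 (fold 12.0, −log10 q 21.2, chr14:103715633-103715989) had CHD8 alone. The summit of this XRCC3 peak lay 313 bp upstream, 34 bp from the start of its divergent neighbour ZFYVE21. A further CHD8 peak of almost the same strength (fold 11.5, −log10 q 19.9, chr14:103715062-103715502) spanned the XRCC3 start. Its summit lay 70 bp downstream of that start.

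RAD51C was the single repair gene without either peak. Its start is at position 58692602 of chromosome 17, its CpG ratio of 0.804 was above the members' median, and 1.68% of its window was sequence that occurs more than once in the genome. The nearest peaks lay over 30 kb upstream: a TRRAP summit 33461 bp and a CHD8 summit (fold 10.2) 33441 bp from the start. Its promoter held a CRE word at chr17:58692572-58692579, shown here in capitals because it is the promoter that lacked both peaks.
RAD51C: gctttacgtcTGACGTCAcgccgcacgc

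RAD52, which anneals single strands, had the most significant CHD8 peak of the mediators (fold 21.2, −log10 q 50.5, chr12:949307-950035) and a TRRAP peak of fold 12.0. RAD54L, a motor that remodels chromatin during strand invasion, had CHD8 at a fold of 11.1 (−log10 q 18.6, chr1:46247547-46247903), and its nearest TRRAP summit lay 54886 bp away.

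MRE11, RAD50 and NBN form the complex that senses and trims broken ends. MRE11 had a CHD8 fold of 11.1 beside a TRRAP fold of 9.12, and RAD50 a CHD8 fold of 8.43 (−log10 q 11.3, the lowest of the resection genes) beside a TRRAP fold of 7.21. NBN was the highest of the complex in both lists, with a CHD8 fold of 15.5 beside a TRRAP fold of 11.5 (−log10 q 17.4). RBBP8, their cofactor, had a CHD8 fold of 11.1 beside a TRRAP fold of 6.26 (−log10 q 5.33). The exonuclease EXO1 had the second-highest CHD8 fold of all repair genes (21.7, −log10 q 50.5, chr1:241847750-241848373), beside a TRRAP fold of 7.69.

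The RecQ helicases unwind recombination intermediates. BLM had the weakest CHD8 peak of the recombination genes (fold 7.54, −log10 q 9.04, chr15:90716959-90717503), and its nearest TRRAP summit lay 152514 bp away. WRN had a CHD8 fold of 12.4 and RECQL4 one of 12.8 (−log10 q 23.9), and both had a TRRAP fold of 6.73 (−log10 q 6.39). RECQL4's CHD8 summit lay 24 bp from a start of its divergent neighbour LRRC14.

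All 7 end-joining genes had CHD8 and 5 had TRRAP (71.4%, interval 35.9 to 91.8%). XRCC5 and XRCC6 encode the subunits of Ku, the ring that binds broken ends. XRCC5 had a CHD8 fold of 15.1 beside a TRRAP fold of 9.60 (−log10 q 13.5), with summits 16 bp apart. XRCC6 had one of the strongest CHD8 peaks (fold 21.2, −log10 q 50.5, chr22:41620736-41621885) and one of the weakest TRRAP peaks (fold 5.78, −log10 q 5.33), with summits 504 bp apart, the widest gap of the 30 pairs.

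LIG4, the ligase of classical end joining, had a CHD8 fold of 8.87 (−log10 q 12.4) beside a TRRAP fold of 7.69. XRCC4, its obligate partner, had CHD8 at a fold of 10.2 (−log10 q 16.1, chr5:83077214-83077999), and its nearest TRRAP summit lay 393587 bp away. The CHD8 summit of XRCC4 lay 21 bp from a start of its divergent neighbour TMEM167A. A further CHD8 peak, of fold 22.1, had its near edge 2275 bp upstream of the LIG4 start. It lay outside the window and was not assigned to a gene.

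The other 3 genes of this route serve single-strand break repair and alternative joining. PARP1, which marks breaks with poly(ADP-ribose), had a CHD8 fold of 13.3 beside a TRRAP fold of 20.1 (−log10 q 42.7, chr1:226407960-226408318), the second-highest TRRAP fold of all repair genes. LIG3, a ligase, had a CHD8 fold of 15.1 (−log10 q 29.4) beside a TRRAP fold of 11.5 (−log10 q 17.4). The CHD8 summit of LIG3 lay 467 bp from the nearest LIG3 start and 29 bp from a start of CCT6B. XRCC1, the scaffold that holds LIG3, had CHD8 at a fold of 7.98 (−log10 q 10.1, chr19:43575420-43575787), and its nearest TRRAP summit lay 20524 bp away.

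Both mismatch repair genes had both peaks. MSH6, which recognises mispaired bases, had a CHD8 fold of 11.5 (−log10 q 19.9) over the widest CHD8 peak of the repair genes (1506 bp, chr2:47782768-47784273) and a TRRAP fold of 16.8 (−log10 q 33.3). PMS2, the nicking subunit, had a CHD8 fold of 11.1 (−log10 q 18.6) beside a TRRAP fold of 6.26 (−log10 q 5.33). PMS2 shares its promoter with AIMP2, whose start lies 223 bp upstream on the other strand, and its peaks lay 510 bp (CHD8) and 388 bp (TRRAP) upstream. A peak there cannot be assigned to one of the genes.

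All 5 checkpoint genes had both peaks (interval 56.6 to 100% for each). MDC1, which spreads the damage signal along chromatin, had the highest fold of the 44 genes in both lists: 22.1 for CHD8 (rank 1446 of 23393, −log10 q 52.1) and 25.8 for TRRAP (rank 368 of 14735, −log10 q 60.9). TP53BP1, which steers breaks to end joining, had the least significant CHD8 peak of the route (fold 10.6, −log10 q 17.3) and a TRRAP fold of 7.69. TOPBP1, which activates the replication checkpoint, had a CHD8 fold of 12.0 beside a TRRAP fold of 7.69.

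The kinases CHEK1 and CHEK2 carry the checkpoint signal onward. CHEK1 had a CHD8 fold of 15.5 beside a TRRAP fold of 9.12, and CHEK2 a CHD8 fold of 14.2 beside a TRRAP fold of 7.21 (−log10 q 7.49, the lowest of the route). The summits of these peaks lay far from the canonical start, 761 and 762 bp downstream at CHEK1 and 699 and 630 bp upstream at CHEK2. A further, weaker CHD8 peak of CHEK2 (fold 7.10, chr22:28741497-28741932) spanned the canonical start, its summit 245 bp downstream. Measured from the nearest annotated start of the same gene, the 4 summits of the most significant peaks lay within 100 bp. Both CHEK1 summits lay nearer still to a start of an overlapping antisense noncoding gene, at 11 bp (CHD8) and 12 bp (TRRAP). A peak there cannot be assigned to one of these genes.

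**Figure D2:**
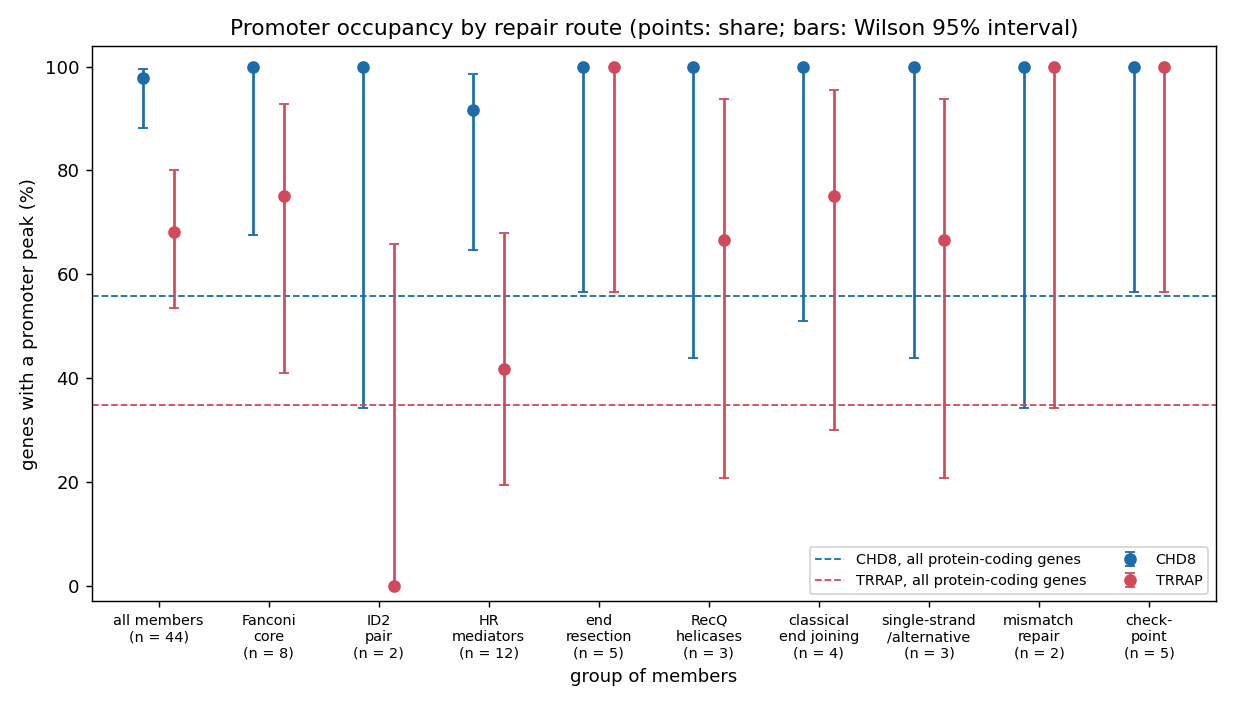
Share of genes with a CHD8 (blue) and a TRRAP (red) promoter peak for all 44 repair genes and for each group, with Wilson 95% intervals; dashed lines give the shares over all 20033 protein-coding genes. CHD8 is at or near 100% in every group, and the TRRAP points run from 0% at the ID2 pair (FANCD2 and FANCI) to 100% in end resection, mismatch repair and checkpoint, with wide intervals.

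TRRAP was found more often where CHD8 was stronger. The 30 repair genes with TRRAP had a median CHD8 fold of 12.6 (range 8.43 to 22.1), and the 13 without it a median of 10.2 (range 7.54 to 17.3). The ranges overlap widely, and FANCM and PALB2 had strong CHD8 without TRRAP, though the PALB2 summit lay nearest to a start of DCTN5. The same order held over all genes, at 13.3 with TRRAP (6802 genes) and 10.6 without (4406 genes). With all CHD8-occupied genes ranked by CHD8 significance and cut into 3 equal groups, TRRAP was at 11 of 13 repair genes in the top group, 14 of 19 in the middle group and 5 of 11 in the bottom group. The shares over all genes were 74.5%, 64.3% and 43.3%.

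The summits clustered at the start site. The median CHD8 summit lay 2 bp upstream of it, or 29 bp downstream when the peak nearest to the start was taken for each gene, and 33 of 43 (76.7%) lay within 250 bp, against 74.7% over all occupied genes. The median TRRAP summit lay 18.5 bp downstream, or 10.5 bp upstream of the nearest annotated start of the gene, and 23 of 30 (76.7%) lay within 250 bp, against 69.4%. The direction of both medians thus depends on the peak or start chosen. CHD8 summits fell upstream of the gene in 22 members, in an intron in 10, in an untranslated exon in 8 and in a coding exon in 3. TRRAP summits fell upstream in 12, in an untranslated exon in 9, in an intron in 8 and in a coding exon in 1. The upstream shares were 51.2% for CHD8 and 40% for TRRAP, against 58.3% and 63.3% over all occupied genes.

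Where both proteins were present at repair genes, their peaks mostly overlapped. In 29 of 30 genes the peaks overlapped, and in 22 the TRRAP peak lay wholly inside the CHD8 peak. The median distance between summits was 87 bp (range 1 to 504 bp), and 18 pairs were within 100 bp. CHD8 peaks were the wider in 27 of 30 genes, with a median width of 735.5 bp over these 30 genes against 223 bp for TRRAP. Widths depend on the library and the antibody as well, and the read totals are unknown. Overlap was not counted over all 6802 genes with both peaks, so whether repair genes differ in it is unknown.

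**Figure D3:**
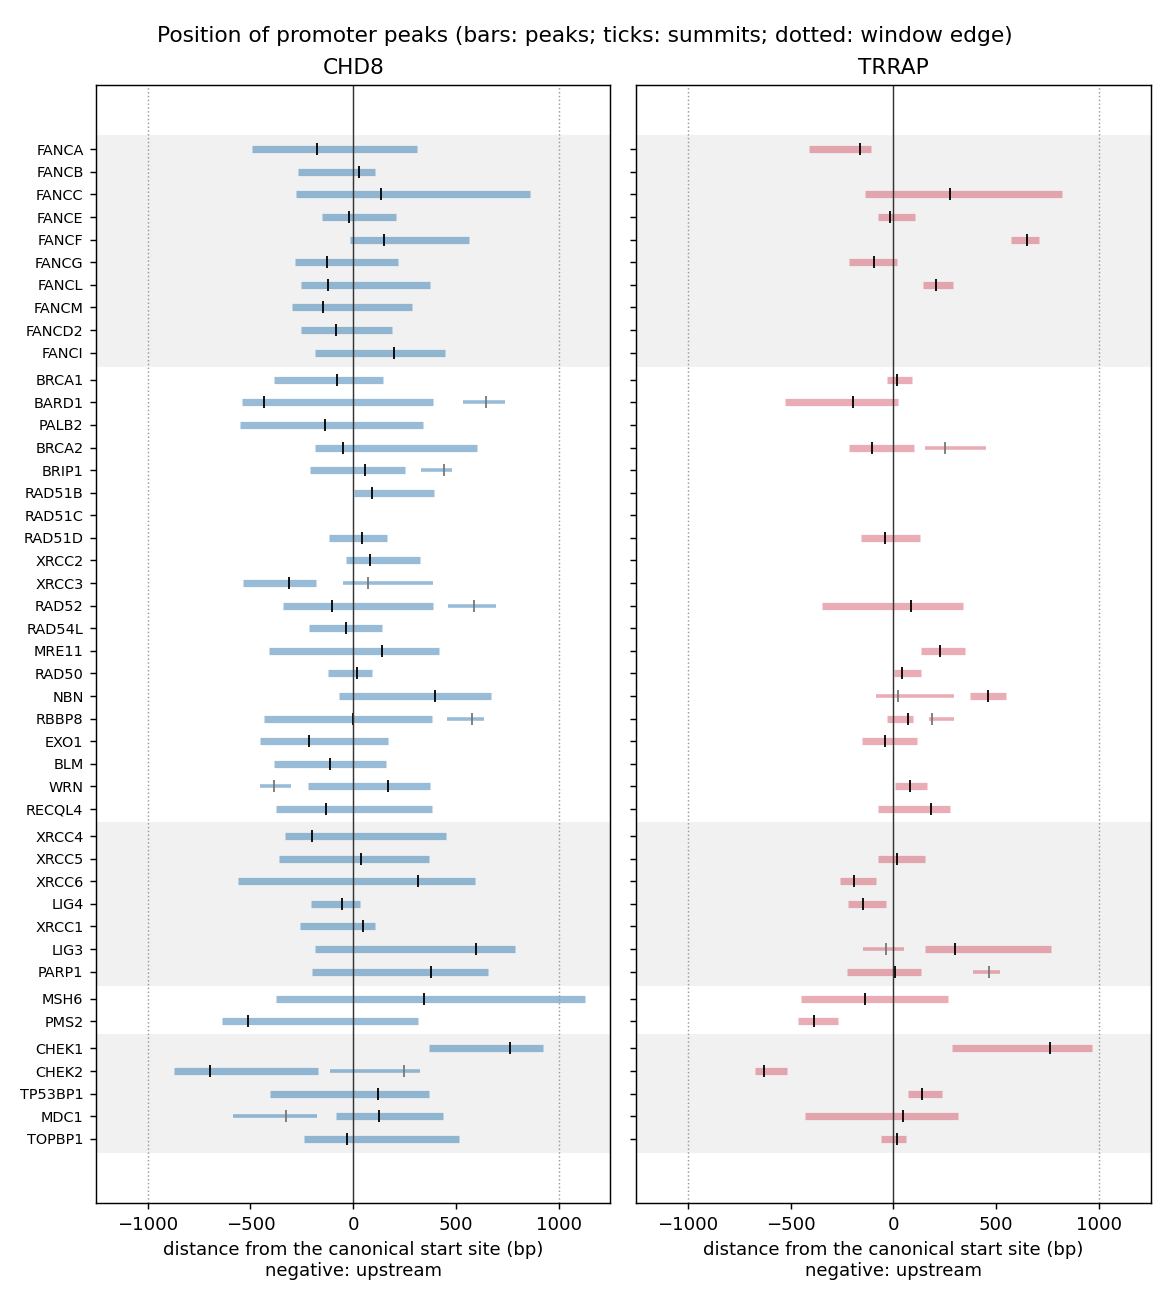
Promoter peaks of each repair gene drawn to scale by distance (bp) from the canonical start site, CHD8 left and TRRAP right. Thick bars are the most significant peak, thin bars further peaks in the window, ticks summits and dotted lines the window edge at 1000 bp. Most bars span or touch the start. Among those that stand away from it are the thick bars of CHEK1 and CHEK2 and the TRRAP bar of FANCF. A thin CHD8 bar of CHEK2 spans the start.

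The threshold of the window touched few members. The most distant peaks counted were the TRRAP peak of FANCF, whose near edge lay 570 bp from the start, a second CHD8 peak of BARD1 at 531 bp and the TRRAP peak of CHEK2 at 518 bp. The nearest peaks not counted were the second CHD8 peak of FANCM at 1041 bp and a CHD8 peak of CHEK1 at 1158 bp. All 43 CHD8 and 30 TRRAP summits lay in sequence that occurs once in the reference genome.

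Peaks also occurred inside some of the genes. RAD51B had 7 CHD8 and 5 TRRAP peaks in its long body beyond the promoter window, among them a TRRAP peak of fold 20.1 in intron 8 (chr14:68364388-68364726). In intron 2 of XRCC5, a TRRAP peak of fold 36.8 (rank 162, chr2:216114858-216115169) lay over a CHD8 peak of fold 19.9. That TRRAP fold exceeds those of all 30 promoter peaks of the repair genes.

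Many repair genes share a promoter with a neighbour. The start of another protein-coding gene lay within 1 kb upstream on the opposite strand at 13 of 44 (29.5%), against 9.46% of all genes. At 12 of these 13, CHD8 was present, RAD51C (beside TEX14 and IGBP1C) being the exception, and TRRAP was present at 7. Over all 1895 genes with such a neighbour, 94.2% had CHD8 and 60.2% had TRRAP, so these counts were near the usual shares. At the 31 repair genes without such a neighbour, 31 had CHD8 and 23 had TRRAP (74.2%). Over all genes, with or without such a neighbour, the shares were 55.9% for CHD8 and 34.9% for TRRAP. The shares over all genes without such a neighbour were not counted. The 6 divergent genes without TRRAP were FANCB, PALB2, RAD51C, XRCC3, XRCC4 and XRCC1.

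Consensus words were counted from 250 bp before to 50 bp after the start, on both strands and without mismatch. The E2F words were TTTCCCGC, TTTGGCGC, TTTCGCGC and TTTGCCGC. They occurred in 9 repair genes (20.5%, interval 11.2 to 34.5%), against 4.38% of all promoters and 5.86% in the members' CpG range. The 9 were FANCA, FANCC, FANCD2, EXO1, XRCC2, XRCC6, MSH6, PMS2 and TOPBP1, so that each route held at least 1. All 9 had CHD8 and 7 had TRRAP. Their 10 words all lay inside CHD8 peaks, 5 of them inside TRRAP peaks, and none overlapped another of the words searched. The 4 E-box words of the repair genes also all lay inside CHD8 peaks, and 2 of the 4 CRE words did. How much of the searched stretch CHD8 peaks cover was not measured, so the count does not link E2F words to CHD8. Of the 35 repair genes without an E2F word, 34 had CHD8 and 23 had TRRAP. Over all 877 genes with an E2F word, 78.4% had CHD8 and 52.1% had TRRAP.

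The other words were closer to their share over all promoters. The E-box (CACGTG) occurred in 4 repair genes (9.09%, against 8.77%): BRCA2, FANCC, LIG3 and RAD50. All 4 had both peaks, and of the 40 repair genes without the word 39 had CHD8 and 26 had TRRAP. Over all 1756 genes with the word, 66.3% had CHD8 and 44.3% had TRRAP. ETS words (CCGGAAGT, CCGGAAGC) occurred in 9 (20.5%, interval 11.2 to 34.5%, against 10.5%), 6 of them recombination genes. In the members' CpG range the ETS share was 14.8%. The NRF1 word (GCGCATGC) occurred in 4 (9.09%, against 4.27%), the CRE word (TGACGTCA) in 4 (against 2.69%) and the CHR word (TTTGAA) in 4 (against 11.5%).

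The NFY word (CCAAT) occurred in 20 (45.5%, against 36.1%) and the SP word (GGGGCGGGG) in 15 (34.1%, against 24.5%). TRRAP was at 11 of the 20 repair genes with the NFY word and at 19 of the 24 without it. Over all genes it was at 33.3% with the word and 35.9% without. For CRE, and likewise for CHR, it was at 2 of 4 with the word and 28 of 40 without. Over all genes it was at 56.6% and 34.3% for CRE, the other order, and at 23.5% and 36.4% for CHR. For ETS it was at 6 of 9 with a word and 24 of 35 without (47.8% and 33.4% over all genes). For SP it was at 12 of 15 with the word and 18 of 29 without (49.3% and 30.3% over all genes). The YY1 word (AAGATGGC) occurred in 0 (upper limit 8.03%, against 4.06%). Of the 9 words, E2F and ETS had intervals that lay wholly above the share over all promoters, as did that of CRE (3.59 to 21.2%). Against the share in the CpG range, the intervals of E2F (5.86%) and CRE (3.47%) lay wholly above it, and that of ETS did not. A match is a description of the letters in this window, and factors can bind sites that differ from these words.

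**Figure D4:**
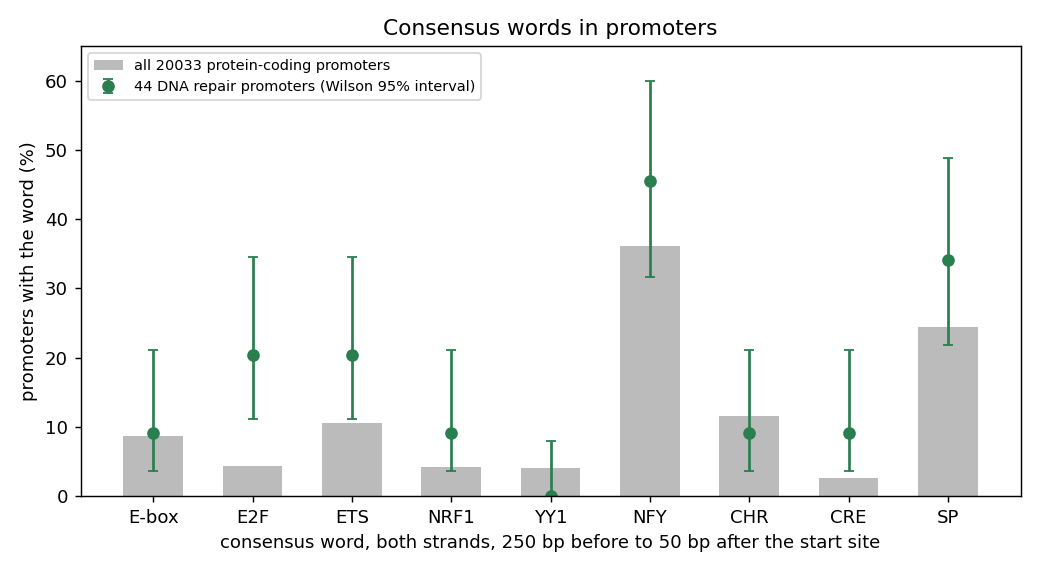
Share (%) of promoters with each consensus word: green points, the 44 repair genes with Wilson 95% intervals; grey bars, all 20033 protein-coding promoters. The E2F point, at 20.5%, stands above its bar of 4.38%, and the E-box point lies on its bar.

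Outside the 44 genes, 98 further repair genes were examined. CHD8 was at 95 (96.9%) and TRRAP at 57 (58.2%, interval 48.3 to 67.4%), which overlaps the interval of the 44. By route, TRRAP was at 6 of 8 Fanconi, 10 of 16 recombination, 6 of 10 end-joining, 3 of 5 mismatch, 14 of 22 signalling, 9 of 14 base excision and 5 of 9 translesion and reversal genes. Nucleotide excision repair, which removes bulky lesions, had the lowest share, 4 of 14 (28.6%, interval 11.7 to 54.6%), although 13 of its 14 genes had CHD8. Among the most significant TRRAP peaks were those of RMI1, a partner of BLM (fold 24.9), the translesion polymerase REV1 (fold 22.5), the end-joining factor APLF (fold 22) and the lesion-recognition factor RAD23B (fold 21.5). RMI1 thus had a strong TRRAP peak where BLM itself had none.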

How the data were processed

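ChIP-seq peak lists of 1 CHD8 and 1 TRRAP library were used. Per the submitters' processing notes, HISAT2, MACS2 (2.1.1.20160309) and GRCh38 were used by the authors, with no roles given. The control behind the peaks and the read totals are not given in the sources used here, so depth is unknown. By their names, the lists were cut at a false discovery rate of 0.0001 for CHD8 and 0.001 for TRRAP. Each peak has a fold (a linear ratio deposited by the authors), −log10 p and −log10 q values as deposited, a score deposited by the authors (not used for results) and a deposited summit offset.

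From these, peaks were matched to canonical GENCODE 44 start sites (GRCh38, coordinates counted from 1). No peak on the main chromosomes ran past a chromosome's end. A gene's peak was its most significant one in the window. The copy number of a summit was read from 32-base words of the reference genome. Python 3.11.15, pandas 2.3.3, pysam 0.24.0, numba 0.67.0 and scipy 1.17.1 were used, and the window step was tested on simulated data.

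All members are named. Members lacking a peak, and those with the most and least significant peaks of each subgroup, are given with the fold and −log10 q of their peaks. The members, routes, other repair genes and words were chosen with earlier results of these data known. Of the other repair genes, 4 of the 5 with the most significant TRRAP peaks are named. Alternatives covered the window, start sites, peak threshold, overlap, shared promoters, route assignment, word window and CpG range. Exact words miss sites with a mismatch.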

Additional observations from a re-analysis of the deposited data

How the results depend on the processing

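No paired analysis was possible because each antibody had 1 library. Of 69 alternative values, 59 stayed within the limit set for their kind, and 10 did not: a ratio of 1.5 for counts, the counting interval for shares and the SD over genes for summit medians. The summit medians stayed within that SD but changed sign: CHD8 went from -2 to 29 bp with the peak nearest to the start, and TRRAP from 18.5 to -10.5 bp with the nearest start of any transcript. Restricting each list to its upper 50% by significance left TRRAP, and both peaks, at 13 repair genes. It left CHD8 at 70.0% of Fanconi and 70.0% of recombination genes, and TRRAP at 20.0% of Fanconi, 25% of recombination and 40.0% of checkpoint genes. Without members that share their window with another coding start, CHD8 was at 100%. The shares over all genes rose to 78.6% (CHD8) and 50.5% (TRRAP) in the members' CpG range. A window of 500 bp lost TRRAP at FANCF and CHEK2, one of 2500 bp gained it at FANCM, and the starts of all transcripts gained it at RAD51B. Of 18 alternative word shares, 5 moved, all in the stretch within 100 bp of the CHD8 summit: NRF1, CHR and CRE fell to 0%, NFY to 23.3% and SP to 18.6%. The E2F share was 25% within 250 bp of the start (6.27% of all promoters) and 14.0% around the CHD8 summit (3.77%). With read totals unknown, a gene without a peak may have had occupancy below what these libraries could show, and the variation between experiments was not measured.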
